A study of Homo sapiens with 8 samples.

Results

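Mock A498 and mock 786-O cells, untransfected cultures of 2 human renal cancer lines, were compared for their baseline gene expression. The members were the Cy3 (green) channels of the 4 arrays labelled with these lines, 2 arrays of A498 and 2 of 786-O, out of 8 arrays in the series. On each of these arrays Cy3 held RNA of mock cells (no transfection) and Cy5 held RNA of the same line after transfection of miR-139-5p (1 array per line) or miR-139-3p (1 array per line) with Lipofectamine RNAiMAX. The 4 arrays of the breast cancer line MDA-MB-231 and the colorectal cancer line HCT116 were set beside the marker genes. They also entered a joint normalization of all 8 arrays. That normalization gave the levels and sums of markers of other cell types and 1 alternative setting. The growth medium was RPMI or DMEM and the labels do not say which line grew in which, so the line and its medium cannot be told apart. Each line is a single established culture, and the labels do not say whether both arrays of a line carried the same mock extract. A spot read on both arrays of a line differed with an SD per array of 0.07 log2 units in A498 and 0.05 in 786-O, less than the SD of 0.09 to 0.13 between duplicate spots of a probe inside an array. These spreads are unlike measures, since duplicate spots also differ in position, and they cannot show whether the extract was shared. Because the labels leave this open, both arrays of a line were counted as 1 sample. Every difference below is a description of these cultures with no test.

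A498 and 786-O are widely used models of clear cell renal cell carcinoma, the tumour of the proximal tubule in which loss of the VHL protein lets hypoxia-inducible factors (HIF) persist in the presence of oxygen. HIF turns on genes of glycolysis, blood vessel growth and lipid storage. Beside this pathway, cultured renal cancer cells differ in their stress programmes, among them the p53 response to DNA damage, the interferon response to foreign nucleic acid and the enzymes that detoxify reactive compounds.

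The lines differed far more from each other than the arrays of a line did. Of 42072 genes measured, 19371 passed a filter on dim signal, that is, the scanner software called them well above background on both arrays of at least 1 line. Levels are normalized log2 Cy3 brightness after background correction with an offset of 50, which pulls the differences of dim genes toward 0. A gene was called higher in a line when its mean log2 Cy3 level differed by 1 or more and the arrays of the lines did not overlap, and this held for 852 genes higher in A498 (4.4% of those that passed) and 785 genes higher in 786-O (4.05%). Differences of 2 log2 units or more were found for 196 genes in A498 and 124 in 786-O. The SD over genes of the difference between the lines was 0.62 log2 units, against 0.09 between the arrays of A498 and 0.07 between those of 786-O. Inside a line, 1 gene of A498 and 0 genes of 786-O differed by 1 log2 unit or more between arrays. Signal well above background was given by 23514 to 24959 of 58201 probes on an array, and no spot was saturated. Fewer cells of a kind and less RNA per cell cannot be told apart in such bulk RNA.

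**Figure D1:**
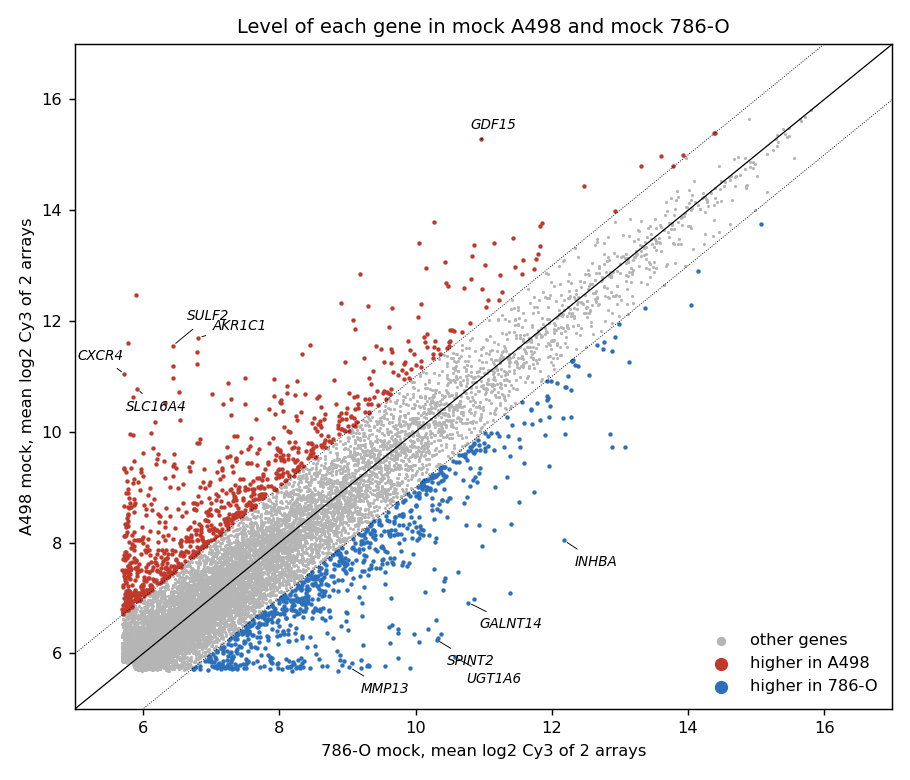
Mean normalized log2 Cy3 level of each gene in mock 786-O (x axis) and mock A498 (y axis), each the mean of 2 arrays. Red points are the genes called higher in A498 and blue points those called higher in 786-O, and grey points are the other genes; the solid line marks equal levels and the dotted lines a difference of 1 log2 unit. GDF15 stands apart at the bright end and CXCR4 lies at the left edge, where 786-O gave no signal well above background.

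Among genes well above background on all 4 arrays and with a current RefSeq symbol, those furthest toward A498 encode secreted and surface proteins, a steroid-reducing enzyme and junction components. SULF2, an extracellular sulfatase that trims heparan sulfate (probe at chr20:46286424-46286483, hg19), read 11.50 and 11.61 log2 units in A498 and 6.46 and 6.42 in 786-O, a difference of 5.12. AKR1C1, an aldo-keto reductase of steroids (chr10:5019910-5019969), read 11.67 and 11.73 against 6.77 and 6.86, a difference of 4.89. SLC16A4, of the monocarboxylate transporter family (chr1:110905615-110905674), read 10.74 and 10.81 against 5.92 and 5.90, a difference of 4.86. For these genes the lowest A498 array stood more than 4 log2 units above the highest 786-O array. The other AKR1C1 probes gave differences from 0.65 to 4.15, and the probes of this family can share sequence with its close relatives. CLDN4, a claudin of tight junctions (chr7:73246907-73246966), read 11.18 and 11.21 against 6.46 and 6.40, a difference of 4.76. With the median over its probes the CLDN4 difference was 2.38. C1S, a protease of the complement cascade, differed by 4.66 at its brighter probe, but its other probe stayed just under the limit of 1, and the median over both probes was 2.83. LAT, an adaptor of T cell receptor signalling, differed by 4.53 and by 2.28 at its other probe. SFN (14-3-3 sigma), a p53-induced brake on the cell cycle, read 11.23 and 11.22 in A498 and 6.85 and 6.74 in 786-O, a difference of 4.43. GDF15, a stress-induced cytokine of the TGF-beta family (chr19:18499890-18499949), read 15.42 and 15.13 against 10.99 and 10.94, a difference of 4.31 or 19.9-fold.

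Under the same conditions, the genes furthest toward 786-O hold a growth factor, a protease inhibitor and enzymes of conjugation and of amino acid and peptide metabolism. UGT1A6, an enzyme that adds glucuronic acid to phenolic drugs (chr2:234681607-234681665), read 5.96 and 5.89 log2 units in A498 and 10.53 and 10.64 in 786-O, a difference of -4.65. Its other probe gave -2.55, and the genes of the UGT1A cluster share exons, so the signal cannot be given to a single family member. INHBA, the subunit that forms activin A (chr7:41729246-41729305), read 8.06 and 8.02 in A498 and 12.15 and 12.21 in 786-O, a difference of -4.14. SPINT2, an inhibitor of the proteases that activate HGF (chr19:38782859-38782918), read 6.31 and 6.19 in A498 and 10.30 and 10.31 in 786-O, a difference of -4.06. ASS1, which makes argininosuccinate in the synthesis of arginine (chr9:133376601-133376660), read 6.29 and 6.26 in A498 and 10.31 and 10.33 in 786-O, a difference of -4.05. All of these genes were well above background in both lines, with A498 close to the dim end of the scale for UGT1A6, SPINT2 and ASS1. BTG3, an antiproliferative protein, differed by -4.03, GALNT14, which starts mucin-type O-glycosylation, by -3.85 and CPE, the carboxypeptidase of prohormone processing, by -3.85. RAC2, a small GTPase known from blood cells, differed by -3.86 at its brightest probe while its other probes lay between -1.06 and 0.01.

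Some genes were well above background in a single line. For these a fold is given as a lower bound, the mean of the bright line against, on each array of the dim line, the higher of the probe's own level and the lowest level among probes well above background (5.82 to 5.84 log2 units). CXCR4, the receptor of the chemokine CXCL12 (chr2:136871953-136872012), read 11.10 and 10.98 in A498 and 5.72 and 5.73 in 786-O and was at least 36.9-fold higher in A498. SLC47A2, a kidney exporter of organic cations, read 9.93 and 9.99 in A498 against 5.86 and 5.75 and was at least 17.3-fold higher. FBXL16, an F-box protein, was at least 12.2-fold higher in A498, HSPA1A, the inducible heat shock protein of the Hsp70 family, at least 11.4-fold, and PHGDH, the entry enzyme of serine synthesis, at least 11.2-fold. CRYAB, a small heat shock protein, was at least 9.7-fold higher in A498 and IRF7, a regulator of interferon genes, at least 9.69-fold. HSPA1A has a near-identical copy, so its signal may hold both.

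In the other direction 786-O alone gave signal for 7 genes of this kind. OLFML2A, an olfactomedin-like secreted protein, read 5.75 and 5.79 in A498 and 9.54 and 9.56 in 786-O and was at least 13.3-fold higher in 786-O, although at its other probe, also not well above background in A498, the levels differed by only -0.14. SYT12, of the synaptotagmin family, was at least 11.2-fold higher, MT1M, a metal-binding metallothionein, at least 10.4-fold and MMP13, a collagenase, at least 9.24-fold. APCDD1L-DT, a non-coding RNA transcribed away from APCDD1L, was at least 8.61-fold higher in 786-O, with differences of -2.24 to -0.76 at its other probes. SLC17A9, the vesicular ATP transporter, was at least 8.21-fold higher and CSF1R, the receptor of macrophage colony stimulating factor, at least 7.35-fold. In all, 122 of the genes called higher in A498 were not well above background at any probe on either 786-O array, and 73 of those called higher in 786-O were not on either A498 array.

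**Figure D2:**
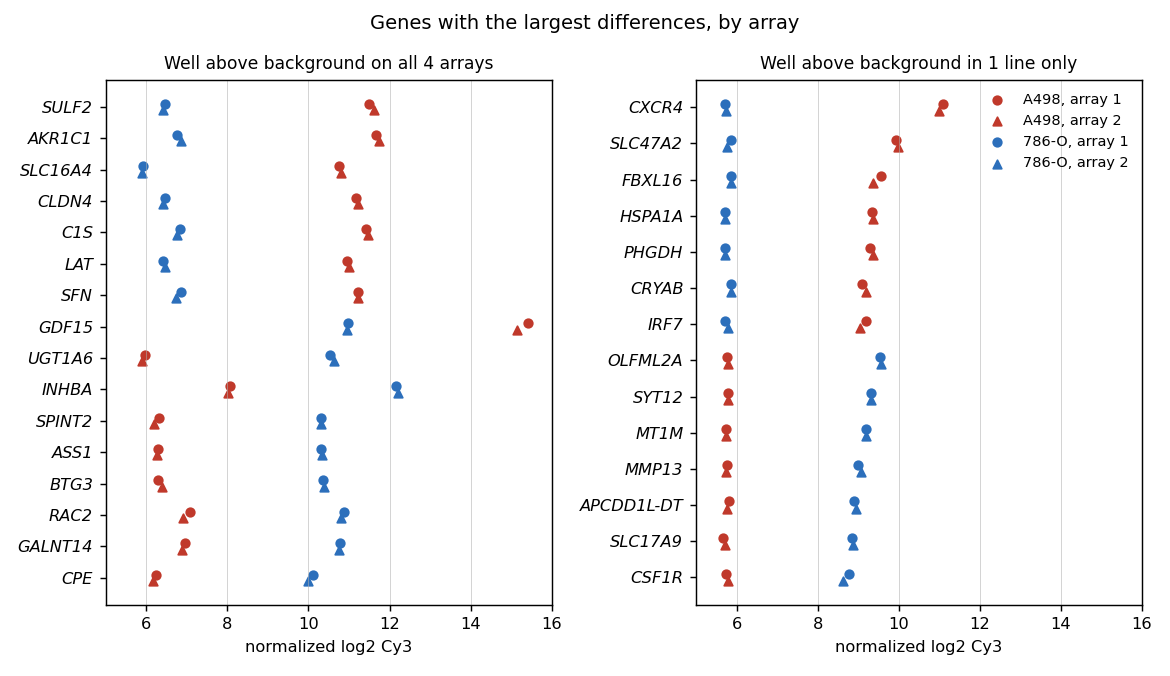
Normalized log2 Cy3 level (x axis) of the genes with the largest differences on each array, red for A498 and blue for 786-O, circles for array 1 and triangles for array 2 of a line. On the left are genes well above background on all 4 arrays and on the right genes well above background in 1 line only; the points of a line sit close together for every gene, with GDF15 in A498 the widest pair at 15.42 and 15.13.

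Genes of the p53 pathway were higher in A498 as a group. Of 25 listed genes, all of which passed, 17 were called higher in A498 (68%, against 4.4% of all genes) and 0 higher in 786-O, with a median difference of 1.37 log2 units against -0.01 over all genes. FDXR, a mitochondrial reductase, read 12.35 and 12.31 in A498 and 8.86 and 8.93 in 786-O, a difference of 3.44. BTG2, an antiproliferative gene, read 9.18 and 9.22 against 5.99 and 6.01, a difference of 3.20. DDB2, which finds ultraviolet damage in DNA, read 10.76 and 10.89 against 8.07 and 8.16, a difference of 2.71. As the calling rule requires, no array of 786-O reached the level of A498 for any of these genes. MDM2, the ligase that destroys p53 and is itself a p53 target, differed by 1.64, with 1.75 to 2.32 at its other probes. The genes of cell death followed the same direction, with differences of 2.30 for BBC3 (PUMA), 1.87 for FAS, 1.36 for BAX and 1.25 for TNFRSF10B, although a second BAX probe gave 0.30. MDM4, the second inhibitor of p53, differed by -0.13.

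Genes of the interferon response were also higher in A498. All 32 measured genes of the list passed. Of these, 20 were called higher in A498 (62.5%, against 4.4% of all genes) and 0 higher in 786-O. The median difference was 1.40 log2 units. Only 1 gene of the list had a difference below 0. OASL, related to the synthetases that activate RNA decay, read 10.61 and 10.83 in A498 and 6.54 and 6.53 in 786-O, a difference of 4.19. MX1, a GTPase that traps viral particles, read 9.44 and 9.41 against 6.15 and 6.22, a difference of 3.24. IFIT2, which binds foreign RNA, read 10.33 and 10.26 against 7.25 and 7.34, a difference of 3.00. The ubiquitin-like protein ISG15 was among the brighter of these genes in both lines, at 11.87 and 11.86 against 9.12 and 9.08, a difference of 2.76. The RNA sensors RIGI and IFIH1 differed by 2.09 and 1.92. MX2, a relative of MX1, was not called, at 0.14.

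Interferon-stimulated genes are switched on through the element bound by the factor ISGF3, and the promoter stretches of 6 genes higher in A498 are shown because they carry its core letters. The motif searched was GAAANNGAAA on both strands, in windows from 250 bases before to 50 bases after each start site (RefSeq, GRCh38.p14). It was found for 16 of the 24 list genes with a promoter entry (66.7%), a gene counting when any of its promoters matched. Counted per promoter, an unlike unit, it was found in 1255 of 35116 promoters overall (3.57%). Of the 16 list genes with a promoter entry that were called higher in A498 it was found in 12. Among the other 8 it was found in 4. The stretches run 5′ to 3′ on the gene's strand, with every match in capitals (overlapping matches run together, and TTTCNNTTTC is the same motif read on the other strand). A match is a description of the letters and does not show that a factor was bound. The positions are chr21:41431829-41431888 (plus strand) for MX1, chr1:1013359-1013418 (plus) for ISG15, chr2:6877607-6877666 (plus) for RSAD2, chr15:88638922-88638981 (plus) for ISG20, chr19:17405726-17405785 (minus) for BST2 and chr10:89392482-89392541 (plus) for IFIT1.
MX1: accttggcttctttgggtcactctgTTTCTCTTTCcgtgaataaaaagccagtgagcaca
ISG15: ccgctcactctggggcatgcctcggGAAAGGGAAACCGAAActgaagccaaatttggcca
RSAD2: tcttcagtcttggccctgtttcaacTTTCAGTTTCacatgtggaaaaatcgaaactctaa
ISG20: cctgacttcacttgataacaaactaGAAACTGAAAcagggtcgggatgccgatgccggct
BST2: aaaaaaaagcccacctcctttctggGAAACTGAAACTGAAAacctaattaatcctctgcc
IFIT1: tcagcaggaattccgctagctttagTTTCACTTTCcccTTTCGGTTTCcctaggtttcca

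Of the genes whose promoters are shown, ISG20, an RNA-degrading exonuclease, differed by 2.44 and BST2 (tetherin), which holds budding virus at the cell surface, by 2.31. RSAD2 (viperin), which makes a chain-terminating nucleotide, read 8.25 and 8.36 in A498, was not well above background in 786-O and was at least 5.53-fold higher in A498. IFIT1, a sensor of foreign RNA caps, read 10.16 and 10.22 in A498 and 8.60 and 8.59 in 786-O, a difference of 1.59. By the calling rule, each of these genes was higher on both A498 arrays than on either 786-O array.

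Detoxifying and antioxidant enzymes were split, with more of them higher in A498. Of 29 list genes that passed, 13 were called higher in A498 (44.8%, against 4.4% of all genes). Called higher in 786-O were 4 (13.8%, against 4.05%). The median difference was 0.98 log2 units. AKR1B10, a reductase of retinal and other aldehydes, read 13.81 and 13.75 in A498 and 10.26 and 10.29 in 786-O, a difference of 3.51. ALDH1A1, which makes retinoic acid, read 11.40 and 11.41 against 8.32 and 8.34, a difference of 3.07. SLC7A11, the cystine importer that feeds glutathione synthesis, read 10.86 and 10.99 against 8.26 and 8.24, a difference of 2.67. Genes known as targets of the antioxidant factor NRF2 were not all called. Higher in A498, beside AKR1C1, AKR1B10 and SLC7A11, were SRXN1 at 2.59, NQO1 at 1.80, HMOX1 at 1.75 and TXNRD1 at 1.21. GCLC at 0.01, GCLM at -0.24 and GSTP1 at -0.40 were not called and GPX2 did not pass. The genes in the other direction were conjugating enzymes, UGT1A6 at -4.65, the nicotinamide methyltransferase NNMT at -1.96, the glutathione transferase GSTM3 at -1.20, and GSTT1, at least 2.59-fold higher in 786-O. The core of the NRF2 element, TGACNNNGC on both strands, was found for 8 of 24 list genes with a promoter entry (33.3%). A gene counted when any of its promoters matched, whereas the share over all promoters, 13.3%, was counted per promoter. Among the 9 list genes with a promoter entry called higher in A498 the core was found for 1, and among the other 15 for 7. Only the same windows around start sites were searched.

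Proliferation genes were higher in 786-O. All 34 list genes passed, 16 were called higher in 786-O (47.1%, against 4.05% of all genes) and 1 higher in A498, and the median difference was -0.88 log2 units, with 31 of 34 genes below 0. BUB1B, a kinase of the spindle checkpoint, read 6.71 and 6.61 in A498 and 8.67 and 8.82 in 786-O, a difference of -2.08. MCM3, a subunit of the replicative helicase, read 8.56 and 8.36 against 10.45 and 10.46, a difference of -1.99. CDK1, the kinase that starts mitosis, read 7.57 and 7.51 against 9.44 and 9.51, a difference of -1.93, while its other probe gave -0.27. Genes of DNA synthesis and of mitosis were both among those called. For DNA synthesis the differences were -1.84 for MCM4, -1.28 for TYMS, -1.16 for GINS1 and -1.15 for TK1. For mitosis they were -1.99 for CCNB2, -1.82 for BIRC5, -1.72 for TOP2A and -1.22 for AURKA. The proliferation antigen MKI67 differed by -1.25. CCNE1, the cyclin of the start of S phase, went the other way, at 8.63 and 8.55 in A498 against 7.47 and 7.52, a difference of 1.09. Growth rate, cell density and cell cycle phase at harvest are not in the labels, and their part in these differences was not tested.

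**Figure D3:**
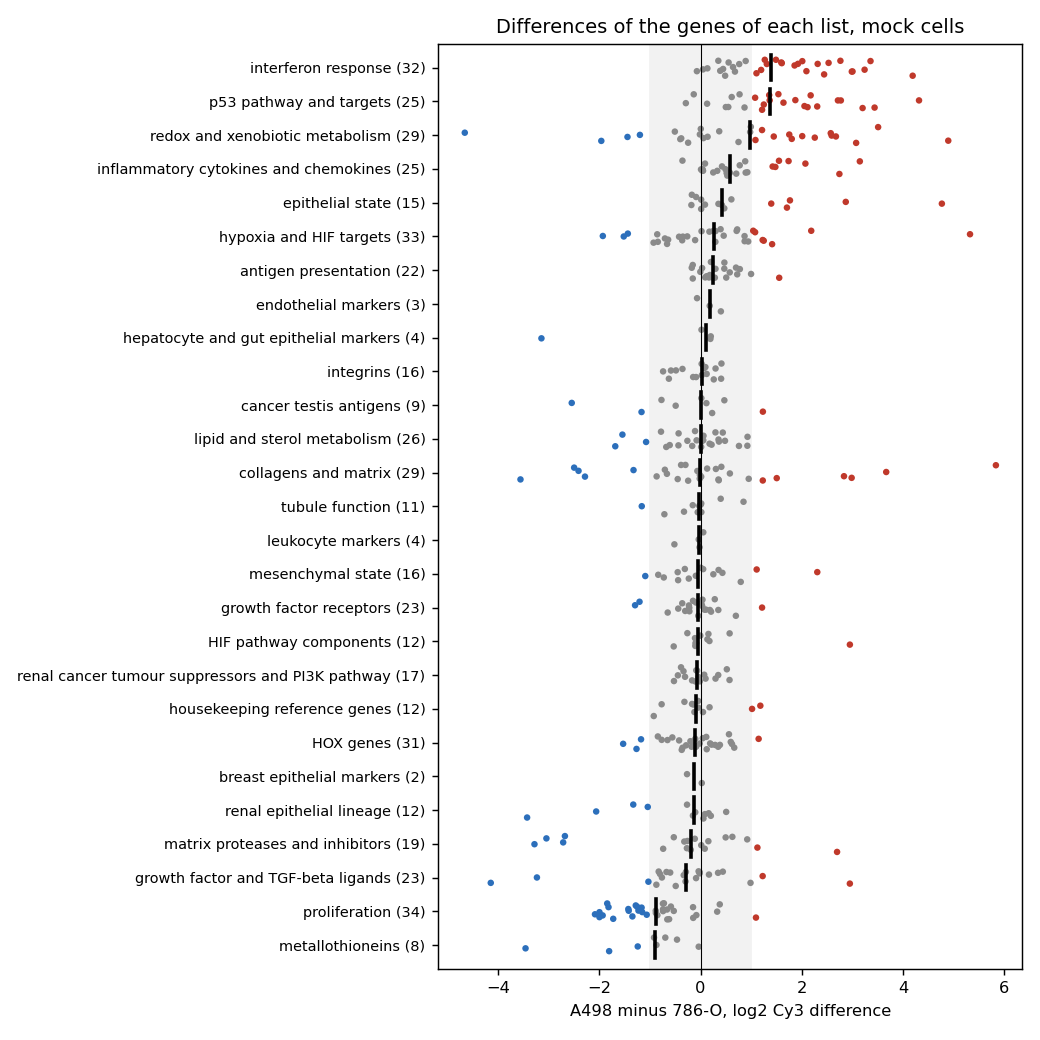
Difference in log2 Cy3 level, A498 minus 786-O, of every gene that passed in 27 gene lists (number of genes in parentheses), ordered by the list median, which is the black bar. Red points were called higher in A498 and blue points higher in 786-O, and the grey band marks differences under 1 log2 unit; the interferon and p53 lists lie furthest to the right, at medians of 1.40 and 1.37, and the metallothionein and proliferation lists furthest to the left, at -0.89 and -0.88.

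Inflammatory mediators followed the direction of the interferon genes with smaller differences. Of 25 that passed, 7 were called higher in A498 (28%, against 4.4% of all genes) and 0 higher in 786-O. The median was 0.58 log2 units. The count and the median depended on the handling of dim signal. Under the other background corrections 13 to 16 of the 25 were called. The median lay between 0.29 and 1.39 over all alternatives. The complement component C3 read 9.62 and 9.58 in A498 and 6.52 and 6.39 in 786-O, a difference of 3.14. CCL5 and CCL2, chemokines for T cells and monocytes, were not well above background in 786-O and were at least 6.42-fold and 4.16-fold higher in A498. IL6 read 8.79 and 8.89 against 7.07 and 7.13, a difference of 1.74. In the list of antigen presentation 1 of 22 genes was called higher in A498 (4.55%, against 4.4% of all genes), PSMB10 of the immunoproteasome. The median of that list was 0.25.

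The HIF pathway differed at HIF1A and at targets in both directions. HIF1A, the oxygen-regulated subunit HIF-1 alpha, read 8.67 and 8.66 in A498 and 5.72 and 5.72 in 786-O, where it was not well above background, and was at least 7.1-fold higher in A498. At a second, dimmer HIF1A probe, again not well above background in 786-O, the levels differed by only 0.76. EPAS1, which encodes the paralogous subunit HIF-2 alpha, was bright in both lines, at 10.94 and 11.23 against 10.93 and 10.89, a difference of 0.18. The mRNA of VHL was also close in both lines, with a difference of -0.26, and the other 9 components lay between -0.53 and 0.57. Of 33 HIF and hypoxia targets that passed, 7 were called higher in A498 (21.2%, against 4.4% of all genes) and 3 higher in 786-O (9.09%, against 4.05%), with a median of 0.26 that ranged from 0.10 to 0.46 over the alternatives. Beside CXCR4, CA12, a carbonic anhydrase of the cell surface, read 9.71 and 9.79 against 7.52 and 7.60, a difference of 2.19. PLIN2, the coat protein of lipid droplets, differed by 1.41, with -0.37 to 0.44 at its other probes, and EGLN3, an oxygen-sensing prolyl hydroxylase, differed by 1.25. Higher in 786-O were HILPDA, an inhibitor of lipid breakdown, at -1.93, the glycolytic enzyme ENO1 at -1.51 and VEGFA, the growth factor of blood vessels, at -1.43. Another glycolytic enzyme, ALDOA, was called higher in A498 at 1.23.

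Both lines carried transcripts of the kidney lineage. Of 8 renal markers, 6 were well above background on both arrays in each line. EMX2 and WT1 were not well above background in either line. PAX8 and PAX2, which specify the renal epithelium, were measured in both lines and differed by 0.06 and 0.51. Over the fuller lineage list 12 genes passed. Of these, 4 were called higher in 786-O (33.3%, against 4.05% of all genes) and 0 higher in A498. CDH6, a cadherin of the proximal tubule, read 6.21 and 6.18 in A498 and 9.57 and 9.66 in 786-O, a difference of -3.42. CDH16, the kidney-specific cadherin, differed by -1.33 and LHX1, a factor of early kidney development, by -1.04. When the arrays of all lines were normalized together, CDH6 and CDH16 were not well above background on any array of MDA-MB-231 or HCT116. PAX8 and LHX1 were, on both arrays of each of these lines, as were PAX2 on both HCT116 arrays and WT1 on both MDA-MB-231 arrays. Of 11 tubule function genes that passed, 1 was called higher in 786-O (9.09%, against 4.05% of all genes), VCAM1, with a difference of -1.16. HAVCR1 (KIM-1), a marker of injured tubule, differed by -0.71.

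Markers of other cell types were mostly dim. Normalized over all 8 arrays, 4 of 7 measured leukocyte markers were well above background in each line. They read 6.30 log2 units or below except for the monocyte marker CD14 in 786-O (6.69 and 6.70). MS4A1 was not well above background on any of the 4 arrays. Of 8 endothelial markers 3 were well above background in A498 and 2 in 786-O, with EGFL7 the brightest. CLDN5 was not well above background in either line. Of 10 hepatocyte and gut markers 4 were well above background in A498 and 3 in 786-O. SERPINA1 (alpha-1 antitrypsin) was called, at -3.14, and TTR, VIL1 and CDX2 were not well above background in either line. The summed linear level of the leukocyte markers lay between 434.7 and 447 on the A498 arrays and between 478 and 482 on the 786-O arrays. CD14 differed most among them, at 6.05 and 6.01 in A498 against 6.69 and 6.70 in 786-O. The sum of the endothelial markers lay between 777 and 803 against 693 and 707. Every probe, also one without signal, carries the offset of 50 into such sums. The sum of the hepatocyte and gut markers was 703 and 716 in A498 and 1715 and 1677 in 786-O. Of 7 breast markers 1 was well above background in A498 and 2 in 786-O, with sums of 389.6 to 409 over the 4 arrays. The part of other cells in the differences was not tested.

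Cell junction, matrix and protease genes differed gene by gene. Of 15 epithelial genes that passed, 5 were called higher in A498 (33.3%, against 4.4% of all genes) and 0 higher in 786-O. Those 5 included CLDN4, the keratin KRT19 with a difference of 2.87, the desmosomal protein DSP with 1.77 and the claudin CLDN1 with 1.40. The simple keratins KRT8 and KRT18 differed by 0.01 and 0.42, and CDH1 (E-cadherin) did not pass in either line. Among 16 mesenchymal genes, SPARC and ACTA2 were called higher in A498 at 2.30 and 1.11 (12.5%, against 4.4% of all genes). CDH2 (N-cadherin) was called higher in 786-O at -1.09 (6.25%, against 4.05%), a call that was lost at -0.99 without 786-O replicate 2. VIM differed by -0.45. Neither direction prevailed among the matrix genes, with a median of -0.01. Of 29 that passed, 6 were called higher in A498 (20.7%, against 4.4% of all genes). Called higher in 786-O were 5 (17.2%, against 4.05%). The basement membrane collagens COL4A1 and COL4A2, which share a promoter region and assemble together, differed by 1.50 and 2.98. COL4A2 read 12.19 and 12.37 in A498 and 9.35 and 9.24 in 786-O. The nidogens, which link laminin to collagen, were split between the lines. NID1 read 8.58 and 8.66 in A498, was not well above background in 786-O and was at least 6.89-fold higher in A498. NID2 read 9.27 and 9.37 in 786-O against 5.77 on both A498 arrays, where this probe was not well above background, and was at least 11.3-fold higher in 786-O at this probe. At its other probe the levels differed by 0.05. COL5A1, a fibrillar collagen, differed by 3.67, and COL6A3 was at least 5.15-fold higher in 786-O. THBS1, an inhibitor of blood vessel growth, differed by -2.41, with -0.85 at its other probe.

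Of 19 matrix proteases and inhibitors that passed, 4 were called higher in 786-O (21.1%, against 4.05% of all genes) and 2 higher in A498 (10.5%, against 4.4%), with a median of -0.19. With the filter on all 4 arrays the counts were 2 and 2 and the median was 0.05. MMP1, an interstitial collagenase, read 5.91 and 5.91 in A498 and 8.60 and 8.56 in 786-O, a difference of -2.68. MMP2, a gelatinase, was not well above background in A498 and was at least 6.19-fold higher in 786-O. PLAU, the urokinase plasminogen activator, read 7.13 and 7.07 against 10.15 and 10.14, a difference of -3.04, with -0.62 at its other probe. MMP7 (matrilysin) went the other way, at 9.34 and 9.40 in A498 against 6.69 and 6.66, a difference of 2.70. None of 16 integrin genes that passed was called, beside shares of 4.4% and 4.05% over all genes.

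Growth factor ligands were called in both directions. Of 23 that passed, 2 were called higher in A498 (8.7%, against 4.4% of all genes) and 3 higher in 786-O (13%, against 4.05%), and with the scanner software's processed signal the counts were 5 and 9. FGF2 read 9.35 and 9.43 in A498 and 6.42 and 6.46 in 786-O, a difference of 2.95. Ligands of the EGF receptor were split, with AREG higher in A498 (a difference of 1.23) and EREG higher in 786-O, at 9.10 and 9.02 against 5.81 and 5.85 in A498, where it was well above background on the second array alone. Of 23 receptors that passed, EGFR and OSMR were called higher in 786-O at -1.29 and -1.20 (8.7%, against 4.05% of all genes). ERBB2 was called higher in A498 at 1.21 (4.35%, against 4.4%). These calls rest on the brightest probes, since the other probes gave -0.57 to -0.10 for EGFR, -0.25 for OSMR and -0.06 for ERBB2, and with the median over a gene's probes 0 receptors were called in either direction.

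All 8 metallothioneins that passed lay below 0, with a median of -0.89. Of these, 3 were called higher in 786-O (37.5%, against 4.05% of all genes). Beside MT1M, MT1E read 9.06 and 9.15 in A498 and 10.90 and 10.91 in 786-O, a difference of -1.80, and MT1X differed by -1.24. The MT1 genes are near-identical, so their probes may share signal. Of 26 genes of lipid and sterol metabolism, 3 were called higher in 786-O (11.5%, against 4.05% of all genes). Among them was FABP5, a fatty acid carrier, at -1.68. Of 31 HOX genes, HOXA2, HOXB8 and HOXB9 were called higher in 786-O at -1.53, -1.17 and -1.26 (9.68%, against 4.05% of all genes). HOXA11 was called higher in A498 at 1.15 (3.23%, against 4.4%). None of 17 tumour suppressor and PI3K pathway genes was called, beside shares of 4.4% and 4.05% over all genes. CDKN2A differed by 0.35 and PBRM1 by -0.52. Of 12 reference genes commonly held to be constant, 2 were called higher in A498 (16.7%, against 4.4% of all genes). Among them was TFRC, the transferrin receptor, at 1.18, and the list median was -0.08.

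By chromosome, the genes called higher in 786-O were most frequent on chromosomes 6 and 14. Over all genes 4.05% were called higher in 786-O and 4.4% higher in A498. On chromosome 6, 109 of 985 genes that passed were called higher in 786-O (11.1%) and 19 higher in A498 (1.93%), and the median over all its genes was -0.17. On chromosome 14 it was 63 of 617 (10.2%) against 13 (2.11%), with a median of -0.21. Chromosomes 18 and X followed at 7.61% and 7.13%. The genes called higher in A498 were most frequent on chromosome 16 (6.9%) and chromosome 7 (6.75%). Over stretches of 60 neighbouring genes the lowest median was -0.46, on chromosome 6 from LYRM2 to RPF2 (chr6:90347525-111329303, hg19). Taking only the lowest stretch of each chromosome, chromosome 14 followed at -0.41 (chr14:69261937-75598261). In the chromosome 6 stretch 8 of the 60 genes were called higher in 786-O and 1 higher in A498. In the chromosome 14 stretch 12 were called higher in 786-O and 1 higher in A498. Copy number was not measured here.

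**Figure D4:**
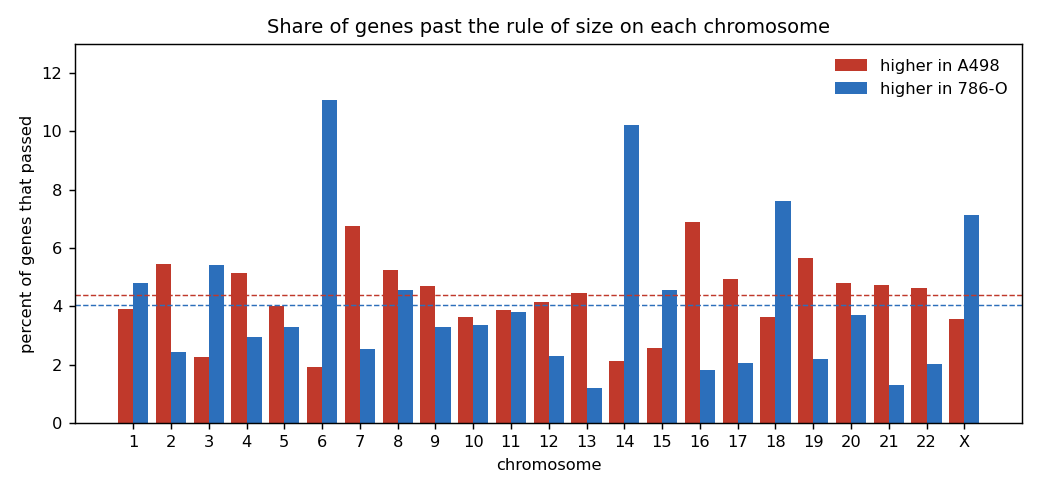
Percent of the genes that passed on each chromosome that were called higher in A498 (red bars) or higher in 786-O (blue bars). The dashed lines mark the shares over all genes, 4.4% and 4.05%; the blue bars of chromosomes 6 and 14 reach 11.1% and 10.2%.

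Neighbouring genes were called in the same direction in 4 uninterrupted runs of 4 or more genes. On chromosome 6 the replication-dependent histone genes H3C1, H4C1, H4C2 and H3C2 were higher in 786-O, with differences of -1.09, -1.22 and -1.81 for the first of these in map order and the largest for H3C2, at 7.65 in A498 and 9.65 in 786-O, and histone genes of this cluster have near-identical copies. On chromosome 17 the aldehyde dehydrogenase genes ALDH3A2 and ALDH3A1 flanked SLC47A2. The flanking genes differed by 1.69 and 1.08, and SLC47A2 was at least 17.3-fold higher in A498. On chromosome 20 APCDD1L, which encodes a relative of a Wnt inhibitor, lay with its divergent and antisense transcripts and LINC01711. In A498 none of APCDD1L, APCDD1L-DT and LINC01711 was well above background. In 786-O their mean levels were 8.24, 8.92 and 8.20, at least 5.36-fold, 8.61-fold and 5.16-fold higher. On the X chromosome the cancer testis genes MAGEA6, MAGEA2B, CSAG4, MAGEA12 and CSAG1 were higher in 786-O by -1.16 to -2.54. MAGEA6 read 6.69 and 6.65 in A498 and 9.21 in both 786-O arrays, and its relatives are similar enough in sequence to share signal. In the list of cancer testis antigens as a whole, 9 of 21 measured genes passed. Of these, 2 were called higher in 786-O (22.2%, against 4.05% of all genes) and CTAG2 alone higher in A498 (11.1%, against 4.4%), at 1.23.

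Transcripts of the mitochondrial genome were higher in A498. Of 10 mitochondrial genes measured, 8 were called higher in A498 (80%, against 4.4% of all genes), with a median of 1.95 log2 units. ATP6, a subunit of ATP synthase, read 13.12 and 13.24 in A498 and 10.79 and 10.87 in 786-O, a difference of 2.35. CYTB, of respiratory complex III, read 13.78 and 13.77 against 11.83 and 11.88, a difference of 1.92. ND3 and ND5, subunits of complex I, differed by 2.22 and 1.59. ND1, also of complex I, was not called, at 9.90 and 9.63 against 9.27 and 9.20. ND6, which is encoded on the opposite strand from the others, read 7.34 and 7.32 against 7.41 and 7.35, a difference of -0.05. RNA integrity is not in the labels, and its part was not tested.

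The differences of the mock cells were also seen in the Cy5 channels, which held RNA of the same lines after transfection. There 876 genes were called higher in A498 (4.44% of 19747 that passed) and 860 higher in 786-O (4.36%). All 852 genes called higher in mock A498 kept that direction, and 757 of them were called again. All 785 genes called higher in mock 786-O kept theirs, and 727 were called again. The transfected cells share array, spot and line with the mock cells, so this is a second reading of the same lines and not a replicate of them. GDF15 differed by 5.16 in the transfected cells and 4.31 in the mock cells. For the p53 list the median was 1.61 in the transfected cells and 1.37 in the mock cells. Of its 17 genes called, 3 were closer to 0 after transfection (17.6%, against 52.4% of the genes called higher in A498 outside chromosome Y). For the proliferation list the medians were -0.94 and -0.88. Of its 16 genes called higher in mock 786-O, 11 were closer to 0 after transfection (68.8%, against 43.1% of the genes called higher in 786-O outside chromosome Y), and the medians over these 16 were -1.36 in the transfected and -1.42 in the mock cells.

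The interferon genes had smaller differences in the transfected cells. All 20 of its genes called in mock cells were closer to 0 in the transfected cells, against 52.4% of the genes called higher in A498 outside chromosome Y. The list median was 0.85 in the transfected cells and 1.40 in the mock cells. IFIT1 had the smallest remaining difference of these genes, 0.43 against 1.59. OASL differed by 3.06 against 4.19, ISG15 by 1.95 against 2.76 and IFIT2 by 2.01 against 3.00. This was not particular to the interferon genes, since the 8 mitochondrial genes called in mock cells were also closer to 0. Over the 10 mitochondrial genes measured the median was 1.72 in the transfected cells and 1.95 in the mock cells. The change between channels was not tested, since each array has its own transfection and no dyes were swapped.

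**Figure D5:**
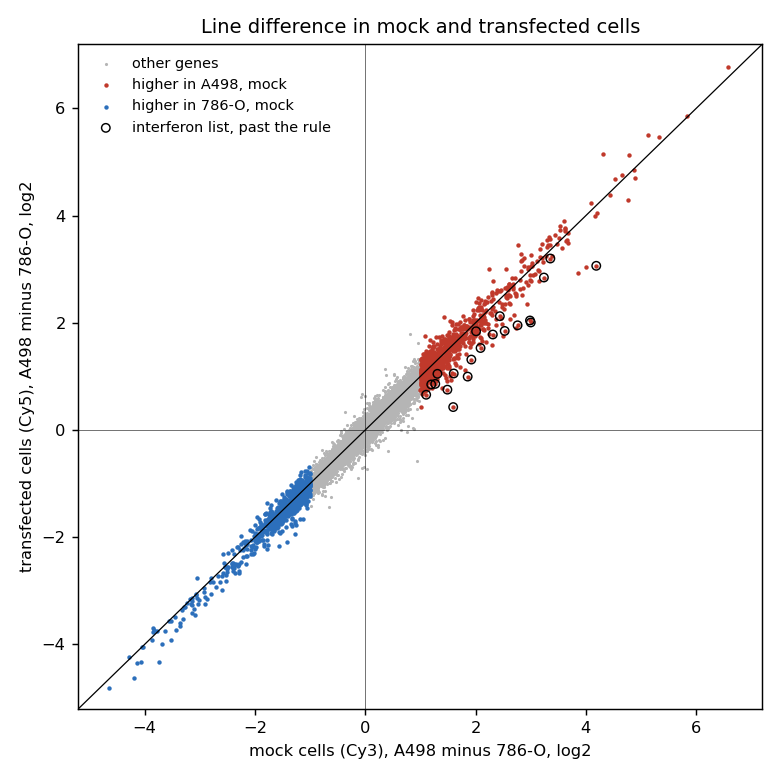
Difference in log2 level, A498 minus 786-O, in mock cells (Cy3, x axis) and in transfected cells (Cy5, y axis) for each gene, with the line of equal differences. Red and blue points were called in mock cells and grey points were not; the 20 circled interferon genes all lie below the line, IFIT1 lowest at 1.59 in mock and 0.43 in transfected cells.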

How the data were processed

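The slide was scanned by the authors and read with Agilent Feature Extraction. Per the file headers, the deposited intensity columns used here give each spot's mean signal and its local background median, linear and before any normalization. The table of log ratios and the authors' other columns were not used. Of 62976 spots on an array 2075 were controls. Controls and 58 to 130 outlier-flagged Cy3 spots per array were left out, background was corrected by normexp with an offset of 50, and log2 values of the 4 Cy3 channels were quantile normalized in limma 3.58.1 under R 4.3.3 with the package data.table in version 1.17.8. The Cy5 channels were treated likewise and on their own. Median Cy3 brightness was 19.8 to 20.3 against a local background of 14, and the number of arrays limits the precision. Later steps used Python 3.11.15, numpy 2.4.6, pandas 2.3.3 and matplotlib 3.10.9.

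Of 33080 probes with a RefSeq accession 31104 matched a current symbol, and the annotation's name was kept otherwise. Spots of a probe were averaged, and the brightest probe on average over the 4 arrays stood for a gene. Of 513 called genes with a further probe well above background on both arrays of at least 1 line, 46 had such a probe of opposite sign. Dimmer further probes did not enter this count. Probe positions are hg19 positions of the array annotation, and the boundaries of exons and UTRs were not looked up. The flag of the scanner software decided which probes were well above background.

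Genes with a current RefSeq symbol were named by size, the 8 largest differences in each direction among those well above background on all 4 arrays and the 7 largest lower-bound folds in each direction among those well above background on both arrays of 1 line and, at any probe, on neither array of the other, with members of the 27 lists added by size or because they define a list. Genes of chromosome Y were not named. The members, lists and rules were chosen with earlier results of these data known. The calling steps were tested on simulated data. The alternatives were other background corrections, offsets, scalings, filters, the median over probes, flagged spots kept and each array left out. Growth details of the renal lines come from the labels alone.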

Additional observations from a re-analysis of the deposited data

How the results depend on the processing

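The number of genes called depended on how dim signals were treated. With an offset of 10 it was 1718 higher in A498 and 1569 higher in 786-O, with no background correction 1544 and 1401, with plain subtraction and a floor of 5 it was 2557 and 2342, and with the scanner software's processed signal 3153 and 2890. At least 851 of the 852 and 783 of the 785 genes remained called in each of these 4. Scaling to the 75th percentile gave 796 and 860, normalization over all 8 arrays 1048 and 963, the filter on all 4 arrays 701 and 689, the median over a gene's probes 665 and 611, and leaving out 1 array 853 to 863 and 775 to 820. For the 30 genes named by size, all 406 values under the alternatives kept their direction and 405 stayed at or past 1 log2 unit. For list medians 356 of 378 values kept their sign. The medians ranged from 1.22 to 2.67 for p53, 1.29 to 2.58 for interferon, 0.37 to 1.20 for the redox list and -1.40 to -0.86 for proliferation. Setting genes of a single line at their lower bound moved no list median by more than 0.06. No paired analysis was possible because the result comes from no test and each line counts as 1 sample.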

Other observations

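Some wide differences lay outside the naming rule. PXDN, a peroxidase that crosslinks collagen IV, read 12.70 and 12.25 in A498 and 5.97 and 5.83 in 786-O, where its brightest probe was well above background on 1 of the 2 arrays. FBLN1, a matrix glycoprotein, read 11.59 and 11.61 in A498 against 5.81 and 5.74 in 786-O, where this probe was not well above background, and was at least 54.3-fold higher in A498 at this probe. Its other probes were well above background in both lines and differed by 2.50 and 5.58. LINC00942, a long non-coding RNA, read 10.57 and 10.70 against 5.80 and 5.92, and was well above background on 1 of the 2 786-O arrays. LOC102723946, whose probe matched no RefSeq accession, differed by -4.29, with -2.48 at its other probe. These genes, and those that follow, were chosen after their values were seen.

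Further genes of steroid and drug handling were higher in A498. UGT2B10, a glucuronosyltransferase, read 9.58 and 9.61 in A498 and 6.22 and 6.21 in 786-O, a difference of 3.38, and its relative UGT2B7 was at least 9.35-fold higher. ABCC2, an exporter of conjugated compounds, differed by 3.30. These lay opposite to UGT1A6. Higher in 786-O were secreted signals of other families, among them TNFSF10 (TRAIL), at 10.11 and 10.26 against 6.46 and 6.42 in A498, a difference of -3.74 at both of its probes. EDN1, which encodes the vessel-constricting peptide endothelin, differed by -3.14, with -1.38 at its other probe. CHRDL1, an antagonist of bone morphogenetic proteins, was not well above background in A498 at its brightest probe and was at least 17.1-fold higher in 786-O there. At its other probe, well above background on 1 of the 2 A498 arrays, it differed by -1.50.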
